A study of Mus musculus with 6 samples.

Results

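Messenger RNA of DHRS2 and 8 related short-chain dehydrogenase/reductase genes was measured by bulk RNA sequencing in HCT116 cells, a line established from a human colorectal carcinoma. The 9 genes were the rows of the count table named DHRS1, DHRS2, DHRS3, DHRS4, DHRS7, DHRS7B, DHRS9, DHRS11 and DHRS13, out of 31456 rows in all. DHRS2 was chosen for its higher level in resistant cells, so its values are given as a description with no test. The other 8 were chosen by family name, with results of this comparison already known. Parental cells were compared with cells resistant to oxaliplatin, a platinum drug that forms adducts with DNA, with 3 libraries each and no other treatment named. The sources used here do not give the drug dose, how the resistant cells were made or whether they are 1 clone.

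Short-chain dehydrogenases are a large family of enzymes that use NAD or NADP to oxidise alcohols or reduce carbonyl groups. Their substrates include steroids, retinoids, lipids and reactive carbonyl compounds. DHRS2, also called HEP27, reduces dicarbonyl compounds, is found in mitochondria and the nucleus, and binds MDM2, a ubiquitin ligase. DHRS3 and DHRS9 act in retinoid metabolism, DHRS4 is a peroxisomal carbonyl reductase, and DHRS7B catalyses a step of ether lipid synthesis. In humans DHRS2, DHRS4 and DHRS1 lie near each other on the same chromosome.

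The total count was 20246878 to 32138423 per library. A floor of 3 counts came to 0.0933 to 0.148 CPM (counts scaled to a common library size). The labels give the organism as mouse, whereas 30616 rows carry human Ensembl identifiers and human symbols. Parental replicate 2 stood apart on the second principal component, at -31.5 against 9.99 and 22.5 for parental replicates 1 and 3. Epithelial markers EPCAM, KRT8, KRT18, KRT19, CDH1 and CDX2 had at least 234 counts in every library, while VIL1, CDX1 and LGALS4 had at most 7. KRT20 had 7 to 10 counts in parental and 13 to 25 in resistant libraries. The epithelial list summed to 2765 to 3156 CPM in parental and 2578 to 2723 CPM in resistant libraries, with KRT19 and CDH1 called higher and EPCAM, KRT8 and KRT18 lower. Of the 7 fibroblast markers COL1A1 was called higher in resistant cells, and the list summed to 22.5 to 26.1 CPM in parental and 39.3 to 44.9 CPM in resistant libraries. PDGFRB had 2 to 6 counts in parental and 13 to 17 in resistant libraries, and COL3A1 had 0 to 1 and 5 to 11. COL1A2, DCN, LUM and PDGFRA had 0 to 2 counts in any library, as did the leukocyte marker PTPRC. The leukocyte list summed to 12.5 to 13.2 CPM and 15.7 to 18.3 CPM, nearly all of it CD68. The part of these markers in the results was not tested. In bulk samples a change in the number of expressing cells cannot be told apart from a change in RNA per cell. Separate cultures are not named for the replicates, so p-values cover the spread among these libraries, which may be technical.

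DHRS2 (ENSG00000100867.14) went from a mid-level transcript in parental cells to an abundant one in resistant cells. It had 26.3, 32.6 and 27.3 CPM in parental replicates 1, 2 and 3 and 956, 1010 and 951 CPM in resistant replicates 1, 2 and 3. The parental libraries held 700, 1002 and 536 DHRS2 reads and the resistant ones 23789, 29524 and 24683. The groups were far from overlapping, and parental replicate 2 was the highest of the parental libraries. DHRS2 took 0.00256% to 0.00312% of all counts in the parental and 0.0982% to 0.104% in the resistant libraries. The fitted log2 fold change (resistant minus parental) was 5.08 ± 0.08 (SE), and it was 5.18 without parental replicate 2. The spread between libraries was 11.7% of the mean in parental and 3.34% in resistant cells, against 3.66% and 0.62% from counting alone.

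**Figure D1:**
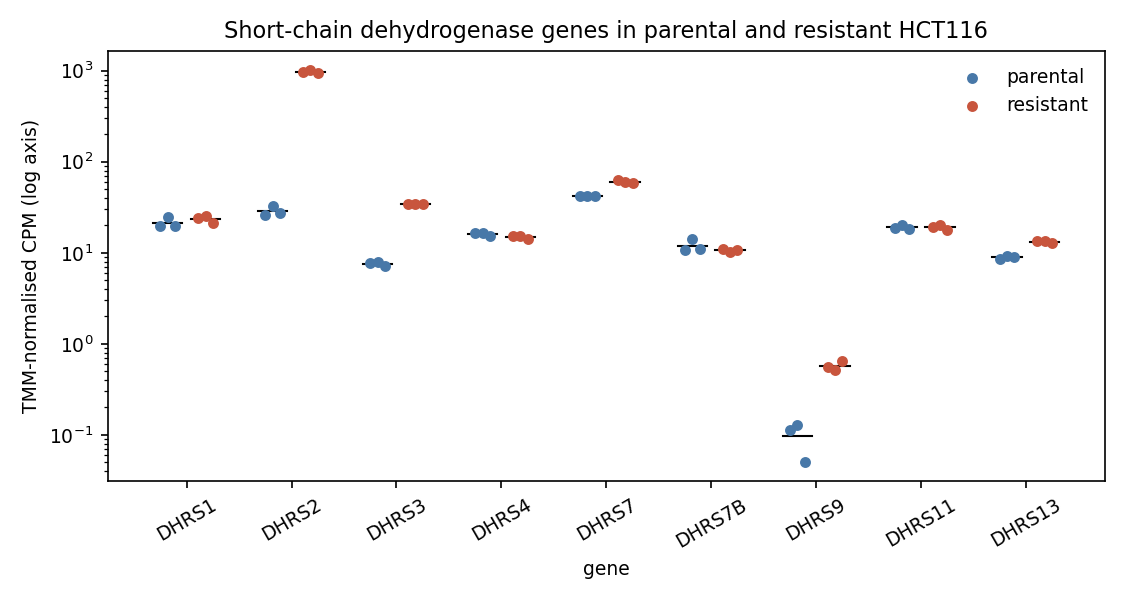
TMM-normalised CPM of the 9 genes on a log axis, with 1 point per library, 3 parental (blue) and 3 resistant (red), and a line at each group mean. DHRS2 shows the widest gap between groups, DHRS3 and DHRS9 are also apart, and DHRS1, DHRS7B and DHRS11 overlap.

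Levels of different genes were compared on FPKM, which scales reads to gene length and library size. In parental cells DHRS2 was number 4 of the 9 genes, at 17.6 ± 2.04 FPKM (SD, n = 3). DHRS7 led with 50.03 ± 2.34 FPKM, followed by DHRS4 at 23.3 ± 0.287 and DHRS1 at 18.8 ± 2.91 FPKM. The DHRS1 and DHRS2 ranges overlapped, and no other pair of neighbours in this order did. DHRS11 (14.4 ± 0.406), DHRS7B (11.6 ± 1.57), DHRS13 (5.91 ± 0.615), DHRS3 (4.42 ± 0.163) and DHRS9 (0.0733 ± 0.00577 FPKM) followed. In resistant cells DHRS2 came first, at 628 ± 17.98 FPKM, and DHRS7 second, at 79.0 ± 3.81 FPKM. DHRS4, DHRS1 and DHRS3 followed, at 21.96 ± 1.05, 21.6 ± 2.83 and 20.7 ± 0.493 FPKM, with ranges that overlapped from each to the next. DHRS11 (17.0 ± 0.985) stood below them, then DHRS7B (9.98 ± 0.921) and DHRS13 (9.08 ± 0.293 FPKM), whose ranges overlapped, and DHRS9 was last at 0.467 ± 0.0643 FPKM. DHRS3 thus moved from the eighth to the fifth place.

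DHRS2 supplied 12.0% ± 0.977 of the summed FPKM of the 9 genes in parental cells and 77.7% ± 0.612 in resistant cells (SD, n = 3). Among all rows of the table its FPKM ranked between 5395 and 6274 from the top in the parental libraries and between 151 and 158 in the resistant libraries. The summed FPKM of the 9 genes was 146 ± 4.94 in parental and 808 ± 24.2 in resistant cells, 5.53 times as high. Without DHRS2 the sum was 129 ± 2.93 and 180 ± 8.30 FPKM, 1.40 times as high. DHRS7, the largest contributor in parental cells, went from 34.3% ± 2.25 to 9.78% ± 0.366 of the sum while its own level was higher.

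**Figure D2:**
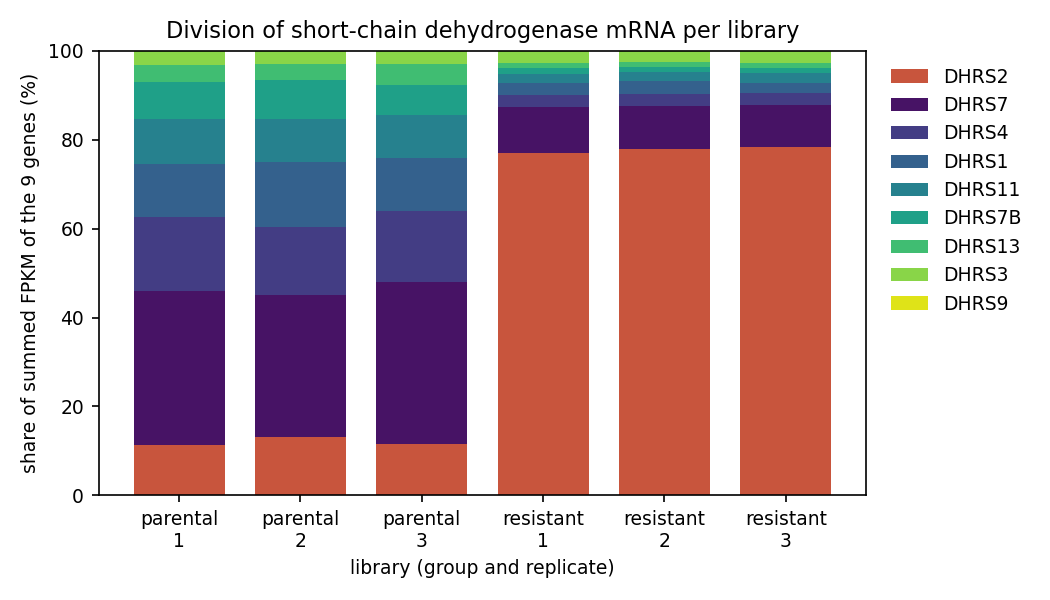
Stacked bars of the share of the summed FPKM of the 9 genes in each library, in percent, with 3 parental and 3 resistant libraries. The DHRS2 share is 11.3% to 13.1% in the parental and 77.1% to 78.2% in the resistant libraries.

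DHRS3 and DHRS9, described above as acting in retinoid metabolism, were both higher in resistant cells. DHRS3 (ENSG00000162496.9), which reduces all-trans-retinal to retinol, had 7.78, 7.84 and 7.13 CPM in parental replicates 1, 2 and 3 and 34.5, 34.4 and 34.4 CPM in the resistant ones. The groups did not overlap. The resistant libraries spread by 0.148% of the mean, less than the 3.30% from counting alone, so their near equality is no trait of DHRS3. DHRS3 rose 4.52-fold (log2 fold change 2.18 ± 0.06 SE, edgeR adjusted p = 1.6e-10). DHRS9 (ENSG00000073737.16), a retinol and hydroxysteroid dehydrogenase, was close to the floor of detection in parental cells. It had 3, 4 and 1 counts (0.113, 0.130 and 0.0509 CPM) in parental and 14, 15 and 17 counts (0.563, 0.513 and 0.655 CPM) in resistant replicates 1, 2 and 3. DHRS9 passed the filter on low counts only through the resistant group, so the filter set its direction and its values carry no test. Its ratio of counts per library size was 5.90, with a 95% counting interval of 2.76 to 14.5 (exact conditional binomial). The interval covers counting error only. The DHRS9 log2 fold change was 2.42 in edgeR and 0.45 on log2(FPKM + 1), a scale that compresses low values.

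The paralogs that lie near DHRS2 showed no difference of its size, though DHRS2 was chosen for that difference. DHRS4 (ENSG00000157326.19) had 16.6, 16.7 and 15.3 CPM in parental and 15.2, 15.2 and 14.1 CPM in resistant replicates 1, 2 and 3. Each resistant library lay just below each parental one, and the log2 fold change of -0.13 ± 0.07 (SE) did not pass the test (edgeR adjusted p = 0.13). DHRS1 (ENSG00000157379.14), a reductase of the endoplasmic reticulum, had 19.5, 24.5 and 19.6 CPM in parental and 24.4, 25.1 and 21.1 CPM in resistant cells. Its groups overlapped through parental replicate 2, and its log2 fold change came to 0.14 ± 0.10 (SE), with an edgeR adjusted p of 0.24. Without parental replicate 2 DHRS1 passed, with a log2 fold change of 0.27 and an edgeR adjusted p of 0.0064. The adjusted p of DHRS1 spanned 0.0064 to 0.60 across its 16 fits.

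DHRS7 and DHRS13 rose by about the same modest amount. DHRS7 (ENSG00000100612.14), a membrane enzyme of the endoplasmic reticulum that reduces steroids and other carbonyls, had 42.4, 42.2 and 41.9 CPM in parental and 63.0, 59.9 and 59.1 CPM in resistant replicates 1, 2 and 3. It rose 1.44-fold (log2 fold change 0.52 ± 0.05 SE, edgeR adjusted p = 4.0e-06). DHRS13 (ENSG00000167536.14) had 8.57, 9.14 and 8.96 CPM in parental and 13.3, 13.6 and 12.7 CPM in resistant cells, a 1.48-fold rise (log2 fold change 0.57 ± 0.08 SE, edgeR adjusted p = 6.3e-05). Neither gene's groups overlapped.

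DHRS7B and DHRS11 did not pass the test on counts. DHRS7B (ENSG00000109016.17), which reduces acyl- and alkyl-dihydroxyacetone phosphate in the peroxisome, had 10.9, 14.01 and 11.1 CPM in parental and 10.9, 10.2 and 10.8 CPM in resistant replicates 1, 2 and 3. Its log2 fold change came to -0.18 ± 0.10 (SE), with an edgeR adjusted p of 0.15, and -0.046 without parental replicate 2, the highest library. DHRS11 (ENSG00000278535.5), a ketosteroid reductase, had 18.7, 20.1 and 18.3 CPM in parental and 19.0, 20.4 and 17.96 CPM in resistant cells. The DHRS11 log2 fold change came to 0.0062 ± 0.07 (SE), with an edgeR adjusted p of 0.95, and turned to -0.0049 with RLE size factors and to -0.012 in DESeq2. On FPKM, however, DHRS11 was 14.49, 14.77 and 13.97 in parental and 17.05, 18.02 and 16.05 in resistant replicates 1, 2 and 3, with no overlap and a limma adjusted p of 0.030. For DHRS11 the ratio of CPM taken on library totals, without TMM, to FPKM was 1.26 to 1.30 in parental and 1.15 to 1.17 in resistant libraries, so the per-length scale differed between the groups. The cause of that difference was not tested.

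Of the 7 paralogs that did not depend on 1 group to pass the filter, 3 rose (DHRS3, DHRS7 and DHRS13), none fell and 4 did not pass. Over all 16605 tested genes 53.8% passed in either direction, 27.3% higher and 26.5% lower. So small a count against that background is no result about the paralogs. A rise of at least 2-fold was called in 1 of the 7, DHRS3, against 5.58% of all tested genes, and a fall of that size in none, against 2.57%. The groups did not overlap in 4 of the 7, against 61.2% of tested genes. DHRS3, DHRS7 and DHRS13 were higher without overlap, against 31.3% of tested genes, and DHRS4 was lower without overlap, against 29.9%. With library sizes alone as the scaling, the median over all genes moved from 0.02 to 0.11, and the 3 paralogs again passed as higher.

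**Figure D3:**
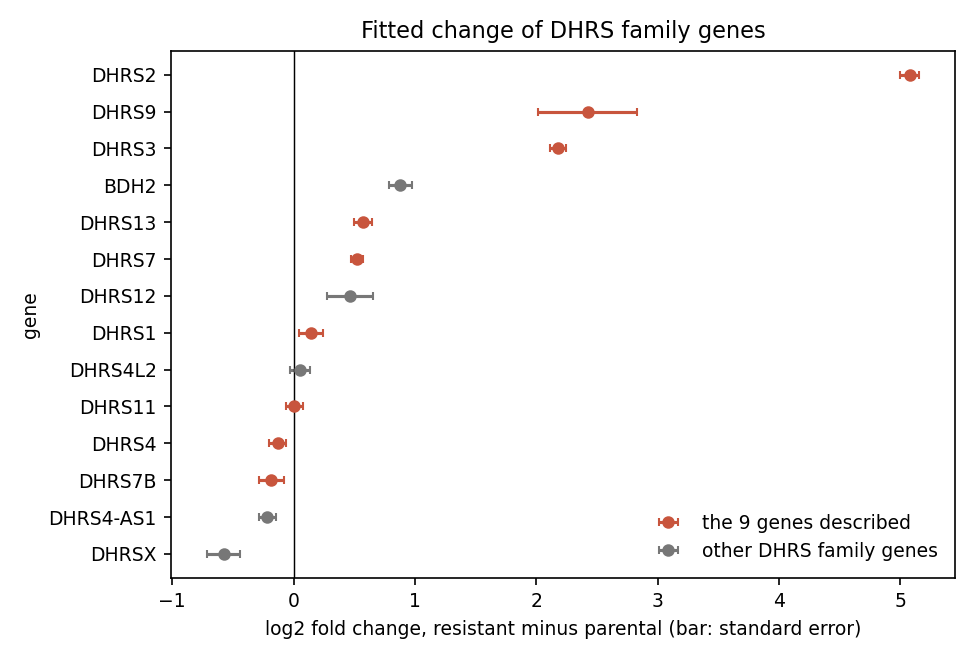
Fitted log2 fold change (resistant minus parental) with its standard error for the 9 genes (red) and 5 other DHRS family genes (grey), from 3 against 3 libraries. DHRS2 lies at 5.08, DHRS9 and DHRS3 at 2.42 and 2.18, and the others between -0.58 and 0.88.

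Set against each paralog, the DHRS2 difference was larger by 2.65 (DHRS9) to 5.26 (DHRS7B) on the log2 scale. The gap was 2.90 to DHRS3, 4.50 to DHRS13 and 4.55 to DHRS7. To its neighbours DHRS4 and DHRS1 it was 5.21 and 4.93, that is, 36.9 and 30.5 times the paralog's fold change, and to DHRS11 it was 5.07. These gaps carry no test, since DHRS2 was chosen for its difference.

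**Figure D4:**
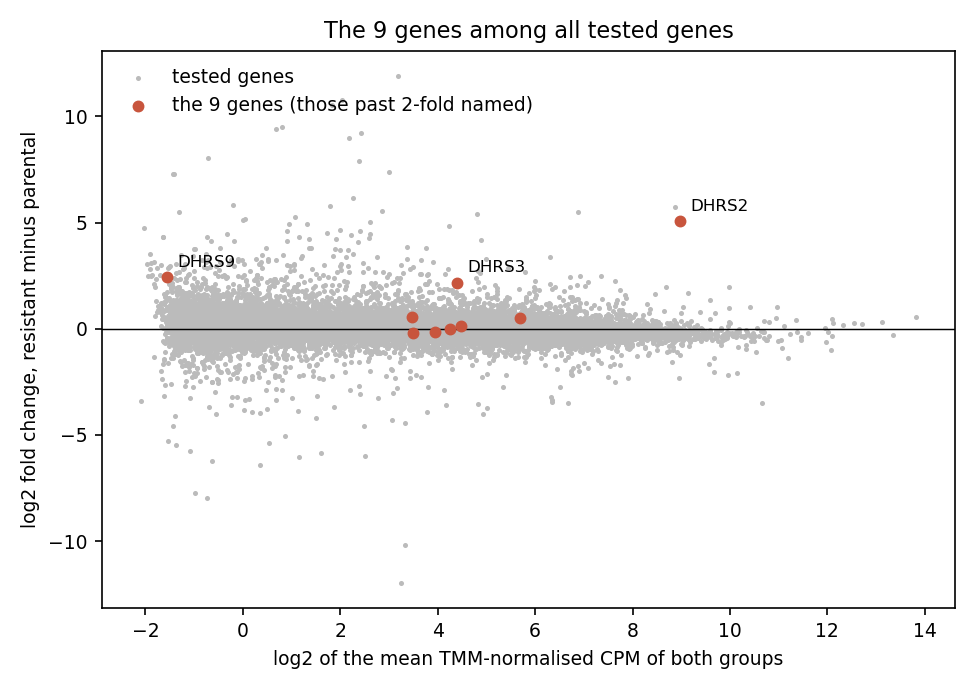
Log2 fold change against the log2 of the mean CPM of both groups for all 16605 tested genes (grey) and the 9 genes (red, named where the change is at least 2-fold). DHRS2 combines a high level with a large change, DHRS9 lies at the low end of the level axis, and 6 of the genes lie in the dense band near 0.

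Of 7 further genes of the family, 6 had a row and 5 were tested. Of these 5, 1 rose and 2 fell, against 53.8% of all tested genes called in either direction. So small a count is no result about the family. Their median log2 fold change was 0.05, against 0.02 over all tested genes. BDH2, a cytosolic hydroxybutyrate dehydrogenase once named DHRS6, rose 1.84-fold from 6.02 ± 0.403 to 11.1 ± 0.822 CPM (SD, n = 3; edgeR adjusted p = 1.3e-05). DHRSX, an enzyme of dolichol synthesis, fell 1.49-fold from 3.64 ± 0.240 to 2.44 ± 0.109 CPM (edgeR adjusted p = 0.0037). Both calls were lost on FPKM, where limma adjusted p-values reached 0.10 for BDH2 and 0.37 for DHRSX. DHRS12 had 1.26 ± 0.198 and 1.75 ± 0.109 CPM and did not pass (edgeR adjusted p = 0.057). It passed in 3 of 16 fits, within a range of 0.025 to 0.30. Among them were those without parental replicate 2 (edgeR adjusted p = 0.040) and with library sizes alone (edgeR adjusted p = 0.025).

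The copies of DHRS4 showed no difference of that size either. DHRS4L2 had 11.5 ± 1.02 CPM in parental and 12.0 ± 0.552 CPM in resistant cells (log2 fold change 0.05 ± 0.08 SE, edgeR adjusted p = 0.63, and -0.0094 without parental replicate 3). DHRS4L1, with 0 to 6 counts in any library, was not tested. The antisense RNA DHRS4-AS1 had 18.6, 18.5 and 21.2 CPM in parental and 16.1, 17.2 and 16.5 CPM in resistant replicates 1, 2 and 3, and passed as lower by 0.22 on the log2 scale (edgeR adjusted p = 0.022). The call ended at edgeR adjusted p-values of 0.080, 0.084 and 0.064 when parental replicate 3, resistant replicate 1 and resistant replicate 3 were left out in turn, and it stood in 8 of 16 fits. DHRS4, DHRS4L1 and DHRS4L2 are near-identical copies and DHRS4-AS1 overlaps DHRS4 on the opposite strand. The sources used here do not state the strand setting of the counting, so the division of reads among these 4 rows is uncertain.

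The genes around DHRS2 showed no change of its size, though DHRS2 was chosen for that change. Of 50 listed neighbours 44 had a row and 37 were tested. NRL passed the filter on low counts only through the parental group, so the filter set its direction and its value carries no test. NRL was not called. Of the other 36 genes 6 rose, 14 fell and 16 did not pass, against 53.8% of all tested genes called in either direction. The median log2 fold change of the 37 was -0.09, against 0.02 over all tested genes. Without NRL (-0.85) the range was -0.77 (IPO4) to 0.62 (PCK2), and none of the 37 reached 2-fold. Over all tested genes 5.58% were called at least 2-fold higher and 2.57% at least 2-fold lower. PCK2, the mitochondrial phosphoenolpyruvate carboxykinase gene, rose 1.54-fold from 39.9 ± 2.88 to 61.6 ± 4.17 CPM (SD, n = 3; edgeR adjusted p = 1.2e-05). PSME2, a subunit of the proteasome activator, rose 1.35-fold from 90.9 ± 1.22 to 123 ± 5.21 CPM (edgeR adjusted p = 1.2e-05). IPO4, a nuclear import receptor, fell 1.71-fold from 94.8 ± 11.7 to 55.5 ± 2.58 CPM (edgeR adjusted p = 2.2e-05). RNF31, the catalytic subunit of the linear ubiquitin ligase, fell 1.52-fold from 58.2 ± 0.983 to 38.2 ± 1.04 CPM (edgeR adjusted p = 1.2e-06, lost on FPKM at up to 0.10 in limma, where IPO4 was lost only with no filter). By the mouse order DHRS2 lies between JPH4 and DHRS4. JPH4, a junctophilin gene, had 0 counts in each parental library and 3, 3 and 2 in the resistant libraries, at or under the floor. With NRL counted, 8 neighbours rose and 8 fell with library sizes alone, and without resistant replicate 3 the number that fell was also 8.

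**Figure D5:**
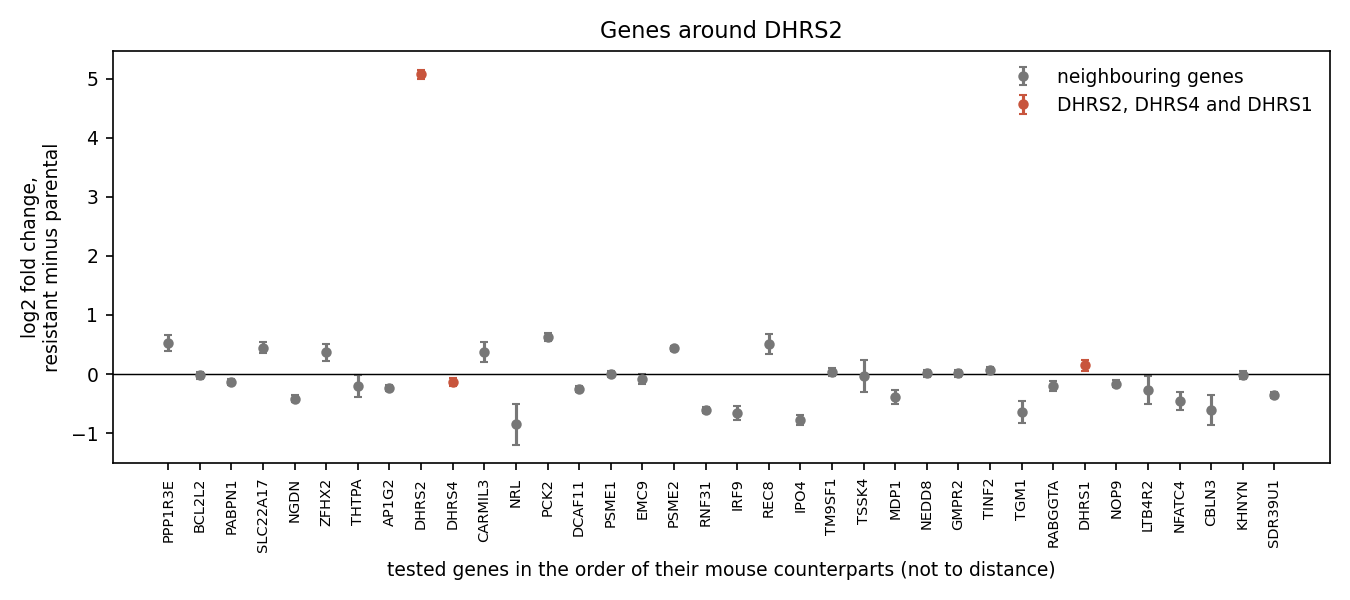
Log2 fold change (resistant minus parental) with its standard error for 36 tested genes, DHRS2, DHRS4 and DHRS1 included. They are evenly spaced in the order of their mouse counterparts in RefSeq. The tested neighbours CHMP4A, DHRS4-AS1, DHRS4L2 and LTB4R had no place in that order and are not shown. DHRS2 is at 5.08, while DHRS4, DHRS1 (red) and the neighbours (grey) lie between -0.85 and 0.62. The lowest, NRL, passed the filter on low counts only through the parental group.

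Retinoid metabolism, the pathway of DHRS3 and DHRS9, moved in both directions. Of 24 tested genes other than those members, CYP26A1, STRA6 and SDR16C5 passed the filter only through the group where they were high. Of the other 21 genes 7 rose, 6 fell and 8 did not pass, against 53.8% of all tested genes called in either direction. ALDH1A3, which oxidises retinal to retinoic acid, rose 1.75-fold from 489 ± 10.5 to 858 ± 1.20 CPM (SD, n = 3; edgeR adjusted p = 1.5e-08). CRABP2, a carrier of retinoic acid to the nucleus, rose 1.60-fold from 79.0 ± 5.22 to 126 ± 1.73 CPM (edgeR adjusted p = 7.1e-07). DGAT1, which can esterify retinol as well as diacylglycerol, fell 1.81-fold from 44.6 ± 2.11 to 24.6 ± 1.68 CPM (edgeR adjusted p = 5.7e-07). The largest fold change of the 21 was that of AKR1B10, which rose 3.93-fold (edgeR adjusted p = 0.0052). AKR1B10 went from 2.68 ± 1.35 to 10.3 ± 0.490 CPM, with 98, 35 and 63 counts in parental replicates 1, 2 and 3. SDR16C5, a retinol dehydrogenase of the same family as DHRS2, went the other way from DHRS9. It had 75, 72 and 65 counts in parental and 1, 1 and 3 counts in resistant replicates 1, 2 and 3. The parental level of SDR16C5 was 41.3 times the resistant one (95% counting interval 17.4 to 128). SDR16C5 passed the filter only through the parental group, so no test is given.

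Among 47 tested short-chain dehydrogenases outside the DHRS names, SDR16C5 left out, 11 rose, 16 fell and 20 did not pass, against 53.8% of all tested genes called. With library sizes alone and SDR16C5 counted, 15 rose and 13 fell. HSD17B7 and NSDHL, both enzymes of cholesterol synthesis, fell. HSD17B7 went from 28.0 ± 2.24 to 11.3 ± 0.421 CPM, 2.48-fold lower (SD, n = 3; edgeR adjusted p = 4.0e-08). NSDHL went from 37.7 ± 3.80 to 15.4 ± 0.520 CPM, 2.45-fold lower (edgeR adjusted p = 7.1e-08). SPR, the sepiapterin reductase of tetrahydrobiopterin synthesis, fell 1.68-fold from 46.5 ± 2.51 to 27.7 ± 1.18 CPM (edgeR adjusted p = 9.6e-07). With SDR16C5 counted, 2 genes were called at least 2-fold higher and 3 at least 2-fold lower, against 5.58% and 2.57% of all tested genes. CBR3 rose 2.24-fold from 1.32 ± 0.388 to 3.04 ± 0.306 CPM (edgeR adjusted p = 5.5e-04). HPGD rose 2.61-fold from 0.663 ± 0.224 to 1.69 ± 0.0828 CPM (edgeR adjusted p = 5.6e-04).

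In ether lipid synthesis, the pathway of DHRS7B, 3 of 11 tested genes rose, 1 fell and 7 did not pass, a called share of 36.4% against 53.8% of all tested genes, with a median log2 fold change of -0.02. AGPS, the alkylglycerone phosphate synthase that forms the ether bond, rose 2.004-fold from 121 ± 10.4 to 243 ± 12.9 CPM (SD, n = 3; edgeR adjusted p = 1.9e-07). TMEM189, the plasmanylethanolamine desaturase gene, rose 1.25-fold (edgeR adjusted p = 0.0016), and PEX7, the import receptor for AGPS, rose 1.25-fold (edgeR adjusted p = 0.021). FAR2, a fatty acyl-CoA reductase, fell 1.25-fold (edgeR adjusted p = 0.0061). The TMEM189 and FAR2 calls were lost on FPKM, at limma adjusted p-values of up to 0.077 and 0.51. The PEX7 call ended in DESeq2 (adjusted p = 0.12), and at edgeR adjusted p-values of 0.077, 0.064 and 0.094 when parental replicate 3, resistant replicate 1 and resistant replicate 3 were left out in turn. Without parental replicate 2 the number that fell was 4.

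MDM2, the binding partner of the DHRS2 protein, and a pair of genes listed with it differed by small amounts. Of the 3 tested genes 2 were higher and 1 lower, against 53.8% of all tested genes called in either direction. So small a count against that background is no result about the list. CDKN1A, an inhibitor of cyclin-dependent kinases, rose 1.20-fold from 208 ± 2.84 to 250 ± 4.29 CPM (SD, n = 3; edgeR adjusted p = 1.7e-04). MDM2 rose 1.18-fold from 204 ± 19.5 to 241 ± 20.97 CPM (edgeR adjusted p = 0.028), a call that ended at edgeR adjusted p-values of 0.083, 0.082 and 0.10 when parental replicate 2, resistant replicate 1 and resistant replicate 3 were left out in turn. MDM4, a partner of MDM2, passed as lower by 0.15 on the log2 scale (edgeR adjusted p = 0.028), a call that was lost with library sizes alone (edgeR adjusted p = 0.39) and stood in 8 of 16 fits. The MDM4 call also ended without parental replicate 1 or 3 or resistant replicate 1 or 2. These values describe mRNA, and no protein was measured.

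By distance between log2 CPM profiles over the 6 libraries, each centred on its parental mean, the genes most like DHRS2 among 11615 with a mean of at least 5 CPM were ALDH3A1, EHF, TTN, F2RL2 and PURPL. The distances were 0.57, 0.83, 0.84, 1.13 and 1.13, and the measure rests mostly on the size of the difference between groups. The mean was taken over all 6 libraries, so ALDH3A1, EHF, F2RL2 and PURPL reached 5 CPM only through the resistant group. Parental means were 1.33 CPM for EHF, 0.301 for F2RL2 and 0.516 for PURPL, and F2RL2 had 5 to 11 counts in parental libraries. ALDH3A1, an aldehyde dehydrogenase gene, had 1.28 ± 0.0750 CPM in parental and 36.2 ± 0.718 CPM in resistant cells (SD, n = 3). On the per-length scale ALDH3A1 had the highest resistant level of these 5 genes, at 29.8 ± 0.636 FPKM. TTN, the titin gene, had the lowest, at 3.54 ± 0.293 FPKM. Both were below the 628 ± 17.98 FPKM of DHRS2. On FPKM profiles 4 of the 5 were again among the nearest 5.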

How the data were processed

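RNA was sequenced from 3 parental and 3 resistant HCT116 libraries, prepared per the labels' protocols with the SMARTER mRNA-Seq kit. Groups and replicate numbers come from the sample titles, and columns were matched through the sample descriptions. The authors deposited whole-number read counts per gene with no normalization. They also deposited per-length expression values, taken here as FPKM: the header names no unit, and a partial TPM cannot be told apart. GRCm38 and mm10 are the builds in the submitters' processing notes, although the identifiers are human, so no coordinates or sequences are given. No aligner or counter is named (not given in the sources used here).

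Counts were tested with edgeR 4.0.16 in R 4.3.3 (filterByExpr, TMM, robust quasi-likelihood fit, two-sided), with Benjamini-Hochberg adjustment over 16605 tested genes and a threshold of 0.05. "Rose", "fell" and "called" refer to this test. Printed CPM are TMM-normalised. The SE is the log2 fold change divided by the square root of F. Alternatives used RLE factors, library sizes alone, DESeq2 1.42.0, other filters, a replicate block, each library left out, and limma 3.58.1 on log2(FPKM + 0.1) or log2(FPKM + 1). Genes that reached the filter (10 counts at the median library size) in 1 group only were left out of some of the report's counts. These were the counts of paralogs, neighbours, retinoid genes and other short-chain dehydrogenases, but not those of the closing section. The edgeR fit was tested on simulated data. An exact permutation test of 3 against 3 libraries cannot go below 0.10.

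The genes and lists were chosen with earlier results of these data known. Named were the 9 genes, the other DHRS genes, up to 4 called genes with the smallest adjusted p per list, any neighbour changed at least 2-fold, and the 5 genes most like DHRS2. NRL, JPH4, CYP26A1, STRA6, AKR1B10, CBR3, HPGD and the marker genes were named after their values were seen. The 6 lists held 147 distinct symbols, 14 of them in more than 1 list, and 1 further gene of the MDM2 list is not reported here. The neighbour list came from general knowledge of the human locus, and 45 of its 50 symbols have a namesake on the mouse chromosome of Dhrs2 in RefSeq (GRCm38.p6), which gave their order. Of the rows, 840 have no gene symbol.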

Additional observations from a re-analysis of the deposited data

How the results depend on the processing

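The DHRS2 log2 fold change was 5.003 to 5.18 with 1 library left out and moved by less than the replicate spread in the 15 other fits, and the ratio of its group means was 35.7 on FPKM and 33.9 on CPM. DHRS3, DHRS7 and DHRS13 passed in all 16 fits, while DHRS4 and DHRS7B passed in none. DHRS11 turned to -0.0049 with RLE factors, -0.0121 in DESeq2 and -0.0142 with no filter, and ran from -0.0451 to 0.0497 with 1 library left out. DHRS4L2 ran from -0.0094 to 0.124. With library sizes alone 2 other DHRS genes rose and 1 fell, 8 neighbours and 0 genes of the MDM2 list fell, and 65.3% of all calls were higher against 50.8% in the main setting. In DESeq2 1 other DHRS gene fell, with no filter 3 ether lipid genes fell, and with at least 1 CPM in 3 libraries 2 other DHRS genes rose. In limma on log2(FPKM + 0.1), log2(FPKM + 1) and the former with no filter, respectively, 2524, 2508 and 2257 of all genes fell, 2, 2 and 2 neighbours rose, 3, 3 and 2 neighbours fell, and 11, 11 and 10 other short-chain dehydrogenases fell. In these 3 fits 0 other DHRS genes rose, and 0 other DHRS, 0 ether lipid and 0 MDM2 list genes fell. With no filter 5 retinoid genes and 6 other short-chain dehydrogenases rose. DHRS2 minus DHRS9 was 3.45, 4.64 and 3.45 in them, and DHRS2 minus DHRS11 was 4.86 with a pseudocount of 1. With 1 library left out, 1 to 2 other DHRS genes rose and 1 to 2 fell, 8 to 13 neighbours fell, 1 to 4 ether lipid genes fell, and 1 to 2 MDM2 list genes rose and 0 to 1 fell. Over all tested genes 3869 to 4597 rose and 3797 to 4612 fell in the same fits. The cause of these shifts was not tested. Replicates of the same number correlated at 0.074, 0.136 and 0.010, so the numbers were not taken to pair the libraries, and resistant replicate 1 correlated best with parental replicate 3 (0.094). With a replicate block 9973 genes passed against 8933, DHRS1 passed at an edgeR adjusted p of 0.048 (0.0064 to 0.60 over its fits), and 4 ether lipid genes fell. Depth limits DHRS9, DHRS4L1 and JPH4, whose counts lie near the floor.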
